A study of Bos taurus with 2 samples.

Results

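The genes followed here mark spermatogonia, the mitotic germ cells at the base of the seminiferous tubule, and they are UCHL1, GFRA1, ZBTB16, KIT, DMRT1, STRA8, NANOS3, ID4, SALL4 and SOHLH1. They were chosen with earlier results of these data known. Their probes were taken by gene name, whatever their signal, and 9 of the 10 genes were found on the array, out of 32429 gene names. These 9 genes had 14 probes and 15 spots. ID4 was not analysed here. The samples were tissue slices from the middle of the right testis of 2 kinds of bull aged 24 months. The crossbred bulls were Holstein Friesian crosses that carried 50 to 75% exotic inheritance, and the Zebu bulls were of the Tharparkar breed. RNA from 3 bulls was pooled within each kind, and each pool was hybridised to 1 array, so that the animals of a pool cannot be told apart, no test between the kinds of bull can be made and no p-value is given.

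Spermatogonial stem cells renew themselves and also give rise to daughter cells that divide, differentiate and enter meiosis. Renewal depends on GDNF, a growth factor secreted by somatic cells of the testis, which signals through the receptor RET and the co-receptor GFRA1, and on transcription factors such as ZBTB16 and SALL4. Differentiation depends on the receptor KIT and its ligand KITLG and on transcription factors such as SOHLH1, and entry into meiosis depends on retinoic acid and its target STRA8. Several of these genes are also active outside the germ line: DMRT1 in Sertoli cells, KIT in Leydig cells and mast cells, and UCHL1 in neurons.

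A level is the log2 processed signal of a probe minus the 75th percentile of its array, and a difference is the crossbred level minus the Zebu level on this log2 scale. Probes bind their transcripts unequally, so a level is compared between the arrays and never between probes. A probe was called well above background where the scanner software marked all its spots so, and the brightest probe of a gene, by its mean over both arrays, stood for the gene. Over 5962 probes with more than 1 spot, replicate spots of a probe had an SD of 0.29 (crossbred array) and 0.18 (Zebu array) in level and of 0.33 in difference, termed the spot SD. The gap between the highest and lowest difference of a probe's spots had a median of 0.15 and a 95th percentile of 0.71. The spot SD is thus larger than this gap in most probes. Spots in the dark and bright patches were included. The spot SD covers spotting and scanning only, not labelling, pooling or animals. None of the 15 spots was saturated or marked as an outlier, and none lay in the dark patch or the bright patch of the crossbred array.

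The probes are 60 bases long, and 5 of the 14 were chosen to be shown here. SALL4 is the gene past the log2 threshold of 1.5, STRA8 is the one with the largest positive difference, ZBTB16 has the longest stretch in common with a probe of another gene name, and for KIT and UCHL1 the probe shown lies in another part of the transcript than the brighter one. Capitals mark the longest run of letters that the probe shares, on either strand, with any probe of another gene name on the array.
SALL4: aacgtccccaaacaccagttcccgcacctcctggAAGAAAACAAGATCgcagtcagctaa
STRA8: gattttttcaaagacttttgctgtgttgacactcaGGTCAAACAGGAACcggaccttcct
ZBTB16: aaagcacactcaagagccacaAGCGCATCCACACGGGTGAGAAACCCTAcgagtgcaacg
KIT: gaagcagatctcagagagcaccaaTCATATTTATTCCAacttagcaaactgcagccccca
UCHL1: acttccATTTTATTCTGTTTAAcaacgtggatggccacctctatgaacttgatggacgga
On the HGSC Btau_3.1 build of the array annotation, the SALL4 probe is placed at chr13:80573267-80573326, listed from the higher to the lower coordinate. The ZBTB16 probe is placed at chr15:23077390-23077449, listed from the lower to the higher. The probes of STRA8 (chr4:102580610-102583758), KIT (chr6:72825172-72826324) and UCHL1 (chr6:62544827-62545782) are placed on intervals longer than the probe, as for a probe that crosses a splice junction, and each is listed from the lower to the higher coordinate. The shared run was 28 bases for ZBTB16, in common with a probe named ENSBTAT00000004687, and 13 to 16 bases for the other 13 probes. No probe of another gene name had the same letters as a whole. GC content ranged from 36.7 to 56.7%.

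On both arrays, all 9 genes and 13 of the 14 probes were well above background. In 7 genes the level was lower in crossbred testis, with differences from -1.65 to -0.60, and in STRA8 and NANOS3 it was higher. In bulk tissue, fewer cells of a type, less RNA per cell and a larger share of RNA from other cells cannot be told apart. The median difference over the 9 genes was -0.71, against -0.05 over all 24757 detected transcripts, of which 52.8% lay below 0. At the log2 threshold of 1.5, 1 of 9 genes was lower (SALL4) and none higher, where 2.99% of all detected transcripts were lower and 7.23% higher. These shares count the deposited signal also where only the brighter array was well above background. With such dim sides at their bound they were 2.1% and 6.71%, and they were 1.76% and 6.41% of the 22828 transcripts that, like all 9 genes, passed background on both arrays. At a log2 difference of 1, 2 of 9 were lower (SALL4 and GFRA1) and none higher, against 8.94% and 12.9% of all. At a linear fold of 1.5, 7 of 9 were lower and 1 was higher, against 22.3% and 21.5% of all. This cut is a log2 difference of 0.58, and SOHLH1 (-0.60), STRA8 (0.59) and UCHL1 (-0.62) lay close to it. SOHLH1 fell short of the cut after normexp background correction (-0.55), and KIT after subtracting the median of transcripts at its level (-0.57). STRA8 did so with scaling to probes well above background on both arrays (0.57), so the counts at this fold depend on the processing. All 9 differences were larger than the spot SD of 0.33, and 5 were larger than 2 times the spot SD. The shares of all transcripts past these sizes were not counted, so these counts do not set the 9 genes apart.

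**Figure D1:**
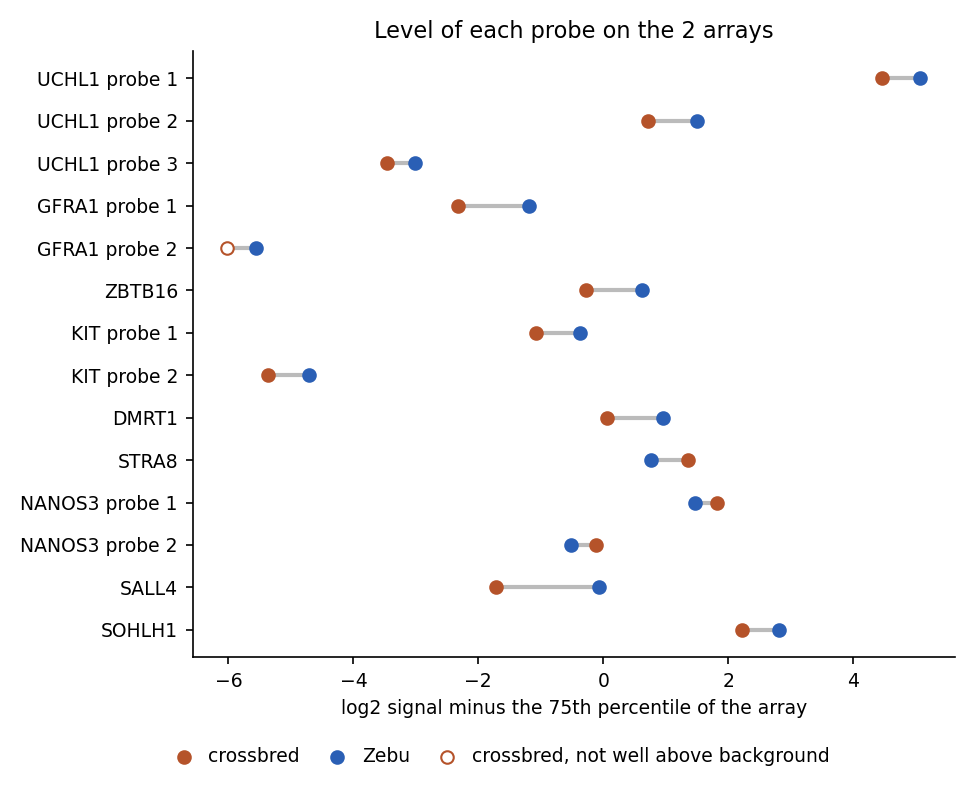
Level of each of the 14 probes, as log2 signal minus the 75th percentile of the array, on the crossbred array (brown) and the Zebu array (blue), 1 array each, with an open circle where the probe was not well above background. Probes of a gene are numbered from the brightest. The brown point lies to the left for 11 probes and to the right for the probes of STRA8 and NANOS3.

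**Figure D2:**
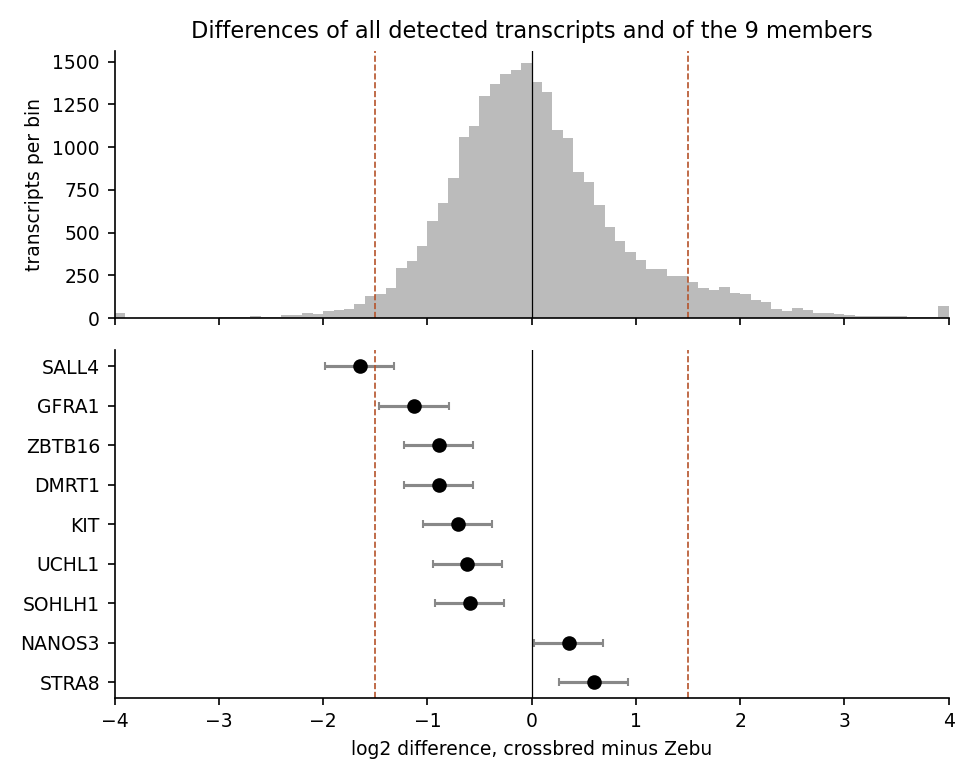
Log2 difference, crossbred minus Zebu, of all 24757 detected transcripts in bins of 0.1 (top, with dim sides at their bound and values beyond the axis gathered in the outermost bins) and of the 9 genes (bottom). Grey bars span 1 spot SD (0.33) to each side, and dashed lines mark the log2 threshold of 1.5, past which SALL4 alone of the 9 lies.

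GFRA1 and RET, the receptors of GDNF, were lower in crossbred testis by their brighter probes. GFRA1, which holds GDNF at the cell surface and presents it to RET, had a level of -2.32 in the crossbred pool and -1.19 in the Zebu pool. The difference of -1.13 is a linear fold of 2.19 in favour of Zebu testis. The other probe of GFRA1 was dim on both arrays, with processed signals of 18.1 and 26.1, and was well above background only in Zebu testis, so that its bound is at least 1.16-fold lower in crossbred testis. With both probes averaged, the dim side at its bound, GFRA1 differed by -0.67. RET, the signalling receptor, which was named as a partner of GFRA1, had processed signals of 18.4 and 122 and was well above background only in Zebu testis, which makes it at least 5.43-fold lower in crossbred testis. The other RET probe, which shares no run longer than 6 bases with it, had processed signals of 14.1 and 32.8 and a bound of at least 1.46-fold lower. The ligand GDNF was not well above background on either array, with processed signals of 8.60 in crossbred and 16.0 in Zebu testis, and it is given no fold.

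SALL4 and ZBTB16, transcription factors of undifferentiated spermatogonia, were lower in crossbred testis. SALL4, a zinc finger protein, had processed signals of 359 in crossbred and 1179 in Zebu testis, which gives levels of -1.71 and -0.06. Its difference of -1.65, a linear fold of 3.13, was the largest among the 9 genes and 4.98 times the spot SD. SALL4 has a single probe with 1 spot, and the study lists it among the transcripts that it picked as lower from these same arrays, so its direction is not independent evidence. After normexp background correction the difference of SALL4 was -1.39, below the threshold in size. ZBTB16, also called PLZF, which keeps spermatogonia from differentiating, had levels of -0.27 and 0.62 and differed by -0.89. The spots nearest to its own had a median difference of 0.49, and with this subtracted ZBTB16 differed by -1.38. The probe named ENSBTAT00000004687, with which the ZBTB16 probe shares the capitals shown above, differed by -0.06, and its part in the ZBTB16 signal was not tested.

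UCHL1, a deubiquitinating enzyme known as PGP9.5 and used as a marker of spermatogonia in bulls, was lower by all of its 3 probes. The brightest had processed signals of 25766 and 41439 and differed by -0.62, the probe shown above had 1942 and 3484 and differed by -0.78, and the dimmest had 107 and 152 and differed by -0.44. The values of the 3 probes spanned 0.33, about 1 spot SD. These probes share no run longer than 6 bases with each other, though all were measured on the same 2 RNA pools.

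KIT, SOHLH1 and DMRT1, which act as spermatogonia differentiate, were lower in crossbred testis. KIT, the receptor tyrosine kinase that marks differentiating spermatogonia, had levels of -1.08 in crossbred and -0.37 in Zebu testis and differed by -0.71. Its other probe, shown above, was dim, with processed signals of 28.6 and 47.2, and differed by -0.65. The 2 probes of KIT were thus 0.06 apart. The ligand KITLG was not well above background on either array by either of its probes. The spot of 1 of them lay in a patch, where the nearest spots had a median difference of -1.93. SOHLH1, a germ cell transcription factor that drives differentiation, had levels of 2.22 and 2.82 and differed by -0.60, and its partner SOHLH2 differed by -0.16, less than the spot SD, and by 0.02 in another probe. DMRT1, which holds back the entry of spermatogonia into meiosis, had levels of 0.06 and 0.95 and differed by -0.89, as ZBTB16 did.

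STRA8 and NANOS3 were higher in crossbred testis. STRA8, which germ cells switch on in response to retinoic acid before meiosis, had processed signals of 3024 and 2100, levels of 1.36 and 0.77 and a difference of 0.59, a linear fold of 1.51. It has a single probe with 1 spot. NANOS3, an RNA-binding protein needed for the survival of germ cells, had levels of 1.82 and 1.46 and differed by 0.36 ± 0.11 (SD over 2 spots of the same probe, 0.28 and 0.44). Its other probe differed by 0.40, on processed signals of 1087 and 862, so the 2 probes were 0.05 apart. Each of these differences was larger than the spot SD and less than 2 times as large. In each of the 4 genes with more than 1 probe, all probes had the same sign.

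The order of the 9 differences, from the lowest, was SALL4, GFRA1, ZBTB16, DMRT1, KIT, UCHL1, SOHLH1, NANOS3 and STRA8. For the gap between 2 such differences, the spot SD comes to 0.47. Neighbours from GFRA1 to SOHLH1 were less than this apart, as were NANOS3 and STRA8. SALL4 lay 0.52 below GFRA1, and the gap between SOHLH1 and NANOS3, where the sign changes, was 0.95. Transcripts at the level of each probe (within 0.5 of its mean) had median differences from -0.17 to 0.18, and the nearest spots of each of the 15 spots had medians from -0.29 to 0.49.

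The other genes of undifferentiated spermatogonia spread more widely. Of 24 listed, 19 were found on the array, 15 were detected, 10 of these were lower and 5 higher, and the median was -0.41. RET passed the threshold of 1.5, and none was higher by as much. CD9, a surface protein used to enrich stem cells, had the lowest difference among the genes measured on both arrays, -1.20, with -0.55 in its other probe. BCL6B, a transcription factor induced by GDNF, had the highest, 1.47, with levels of -2.61 and -4.09 from a single spot. ETV5, also induced by GDNF, differed by -1.08 and by -0.73 in its other probe, and FOXO1, a transcription factor needed for stem cell maintenance, differed by -0.91 (both were named after their values were seen). LIN28A, PAX7, FGFR3 and EOMES were not well above background on either array, and NANOS2, UTF1, NEUROG3, SOX3 and MAGEA4 were not analysed here.

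Of the 8 other genes of differentiating spermatogonia, all were detected, 6 were lower and 2 higher, with a median of -0.24, and none passed 1.5. STRA6, a receptor that takes up retinol, differed by -1.07, the lowest of them, while its 3 other detected probes ran from -0.87 to 0.42. DNMT3B, a DNA methyltransferase, had the highest value, 0.75. Among the lower genes, RARG (-0.002), SOHLH2 (-0.16) and DMRTB1 (-0.31) differed by less than the spot SD, as did REC8 (0.20) among the higher. DNMT3A differed by -0.40, with -0.08 and 0.05 in its other probes. RARG, DMRTB1, REC8 and DNMT3A were named after their values were seen. Of the 12 niche factors, 10 were detected, 8 were higher and 2 lower, and the median was 0.20. Among the 8, FGF2, CSF1, RDH10 and ALDH1A2 had another detected probe that was lower, a dim side at its bound. They were named after their values were seen. FGF2 differed by 0.07 and -1.34, CSF1 by 0.43 and -1.24 and RDH10 by 0.75 and -0.84. ALDH1A2 differed by 0.27, with -0.12 and 0.47 in its other detected probes. CYP26B1, which breaks down retinoic acid, passed the threshold with a difference of 1.76, on processed signals of 155 and 48.1 from a single spot, and the study lists this probe among its own differing transcripts. CXCL12, a chemokine, had the lowest value, -1.10, with 0.22 and -0.63 in its other detected probes. In the pan germ cell list, DDX4, a helicase found in most germ cells, differed by 0.77, and DAZL, an RNA-binding protein of germ cells, by -0.47. DDX4 had the highest and DND1, an RNA-binding protein that protects germ cell transcripts, the lowest difference of this list, -1.28, and its median over 6 genes was 0.14.

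Relatives of these genes in sequence were also read, since some of them are active in cells other than spermatogonia. Of 16 listed, 14 were found and 13 detected, 10 of which were lower, with a median of -0.36. SALL2, a relative of SALL4, was the one past the threshold, with levels of -2.04 and -0.19 and a difference of -1.84, and the study lists it as well. A second SALL2 probe gave the same -1.84, but the probes share 56 of their bases in 1 run. GFRA2, the co-receptor for a relative of GDNF, differed by -1.19, and by -1.25 in a probe with no shared run longer than 5 bases. ID1 had the highest value of the relatives, 0.44. ID2 and ID3, relatives of ID4, differed by -0.89 and -0.36. GFRA2, ID2 and ID3 were named after their values were seen.

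Markers of other cells were read to check the tissue, and all spermatid, spermatocyte, Leydig and peritubular genes read were well above background on both, as in testis. All 7 spermatid genes were higher in crossbred testis, with a median of 1.71, and 5 of them passed 1.5: ODF1 (2.13), PRM2 (1.88), TNP2 (1.74), AKAP4 (1.71) and ACRV1 (1.64), which encode proteins of the sperm tail, the sperm chromatin and the acrosome. The study also names ODF1, TNP2, AKAP4 and ACRV1 as upregulated on these same arrays. The smallest of the list was PRM1, 0.36. The 5 spermatocyte genes read were all above 0, from 0.14 for HORMAD1, a protein of meiotic chromosome axes, to 1.04 for DMC1, the meiotic recombinase, with a median of 0.41. The summed signal of the spermatid genes, in units of the 75th percentile of the array, was 526 in crossbred and 272 in Zebu testis, and that of the spermatocyte genes was 13.0 and 10.5. Such a sum is set mostly by the brightest probes of a list.

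Somatic markers were mostly lower. All 6 detected Sertoli cell genes were lower, from -1.39 for AMH, a hormone of Sertoli cells, to -0.45 for FSHR, the receptor for follicle stimulating hormone, with a median of -0.99 and a summed signal of 54.8 and 103. All 6 Leydig cell genes were lower, with a median of -0.79 and summed signals of 87.8 and 133. HSD3B1 and CYP17A1, enzymes of steroid synthesis, passed the threshold with -1.77 and -1.68, and LHCGR, the receptor for luteinising hormone, was the smallest with -0.10, less than the spot SD. INSL3, which has the brightest probe of this list, differed by -0.44, and its nearest spots had a median difference of -0.48. It was named after its values were seen. The study also names HSD3B1 and CYP17A1 as downregulated on these same arrays. All 5 peritubular and smooth muscle genes were lower, from -1.02 for DES, encoding desmin, to -0.50 for MYH11, a smooth muscle myosin, with a median of -0.77 and summed signals of 29.3 and 51.6. The range of the Leydig cell genes held the differences of all 7 spermatogonial genes that were lower. The differences of DMRT1, -0.89, and KIT, -0.71, also lay within the range of the Sertoli cell genes, so the ranges single out neither cell type. The part of either cell type in these 2 values was not tested. SOX9 was not analysed here, and INHBB was not well above background on either array.

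The mast cell genes CPA3 and HDC had levels within 0.04 of each other on the 2 arrays, and FCER1A was not well above background on either. The nerve list was mixed, with 2 genes higher, 2 lower and a median of -0.62. NEFL, a neurofilament, passed the threshold with -2.50 and is on the study's list too, and NEFM, listed on the array as NEF3, was well above background only in Zebu testis and was at least 2.56-fold lower in crossbred testis. Its deposited signals differed by -2.10, past the threshold, and its bound of -1.35 is short of it. S100B, a calcium-binding protein of glia, had the highest value of the list, 0.70. The part of nerve in the UCHL1 values was not tested. The endothelial genes ran from -0.38 for KDR to 0.47 for PECAM1, with a median of 0.13. Among the macrophage genes, AIF1 passed the threshold with 1.95, CSF1R was lowest with -0.19, and the median was 0.20.

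**Figure D3:**
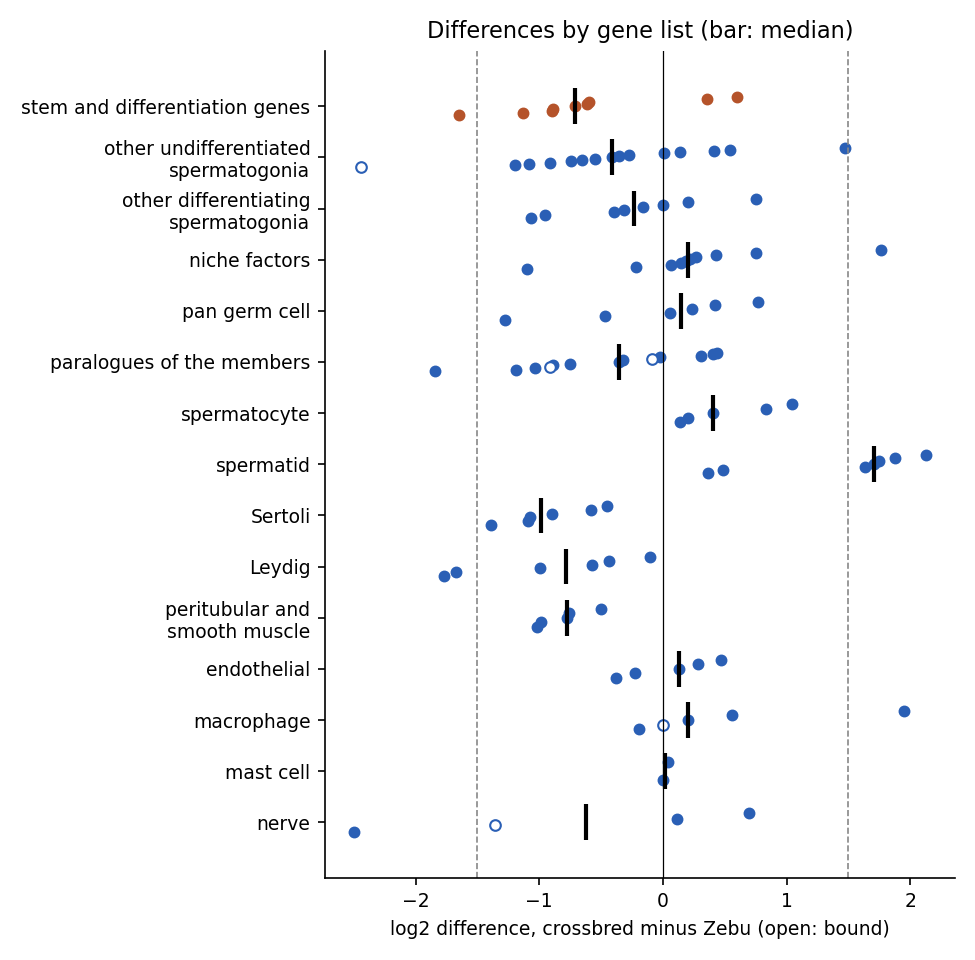
Log2 difference, crossbred minus Zebu, of each detected gene of the 9 spermatogonial genes (brown) and of the 14 other lists (blue), with 1 array per group, open circles for bounds, black bars for medians and dashed lines at 1.5. The medians of the 9 spermatogonial genes and of the Sertoli, Leydig and peritubular lists lie between -0.99 and -0.71. Those of the nerve list and of the other undifferentiated and other differentiating spermatogonia are -0.62, -0.41 and -0.24. That of the spermatid list is 1.71.

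The sign of each of the 9 differences was the same under all 12 other settings of background correction, scaling, probe choice and centring. Settings that filter or keep dim probes could not change these values, nor could averaging probes for genes with 1 probe. UCHL1 ranged from -0.82 to -0.61 over these settings, KIT from -0.80 to -0.57, DMRT1 from -0.92 to -0.74 and SOHLH1 from -0.71 to -0.55. STRA8 ranged from 0.57 to 0.74 and NANOS3 from 0.33 to 0.51.

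**Figure D4:**
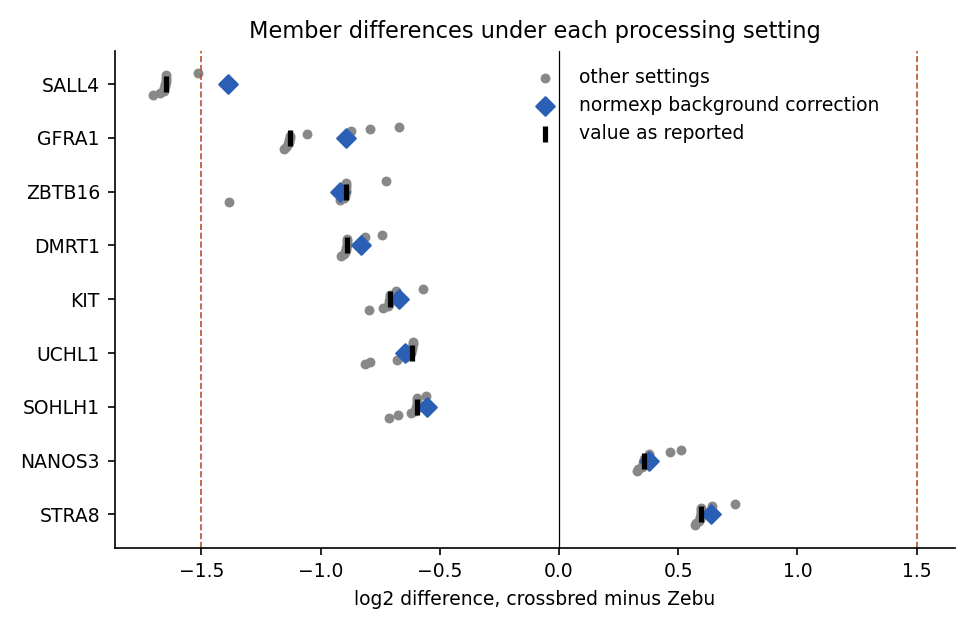
Log2 difference, crossbred minus Zebu, of each of the 9 genes as reported (black bar), after normexp background correction (blue diamond) and under the 11 other settings (grey points). Dashed lines mark 1.5. SALL4 lies past the line as reported, at -1.65, and short of it after normexp correction, at -1.39, and no gene changes sign.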

How the data were processed

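Testis RNA of 3 bulls per group was pooled, labelled with Cy3 and hybridised to 1 array per group, both on the same slide. For every spot the authors deposited an intensity, the processed signal of Agilent Feature Extraction 11.5.1.1, from which background had been subtracted and spatial trends removed per the file headers, besides mean and local background intensities. They also deposited log2 values scaled to the 75th percentile of each array, with medians of -3.00 (crossbred) and -3.01 (Zebu), used here as an alternative.

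Control spots and 13 outlier spots were left out. Log2 processed signals of replicate spots were averaged, and the 75th percentile over non-control probes was subtracted. The scanner software marked 72.0% (crossbred) and 74.3% (Zebu) of spots as well above background. Each gene name took its brightest probe by the mean over both arrays, and counted as detected if this probe passed background on 1 or both of them. Where 1 array was dim, the bound took the higher of the probe's own level there and the lowest level among its probes well above background (-5.78 and -5.94). With 1 array per group, the number of arrays limits how precise any difference is. Nearest spots were the 18 closest, where at least 6 had a value.

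The genes and lists were chosen with earlier results of these data known, and some list genes are not reported here. Named are all 10 genes with every probe and, of the other lists, each gene at 1.5 or more in size, the largest and smallest difference measured on both arrays, and RET, GDNF, KITLG, SOHLH2, NANOS2, DDX4 and DAZL, besides a few genes said in the text to be named after their values were seen. Names were matched to the ARS-UCD2.0 RefSeq gene table, which holds all 10 genes and gave the array name of NEFM, and none of its coordinates was used. The steps were tested on simulated data. The software was R 4.3.3 (limma 3.58.1) and Python 3.11.15 (pandas 2.3.3, numpy 2.4.6, scipy 1.17.1, matplotlib 3.10.9).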

Additional observations from a re-analysis of the deposited data

How the results depend on the processing

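Of 108 values of single genes under the alternatives, 105 moved by less than the spot SD of 0.33, 3 moved by more and none changed sign. Some of the 108 could not move. The settings that filter or keep dim probes left all 9 genes as reported, and averaging probes left the 5 genes with 1 probe so. The count of genes lower by 1.5 or more, 1 as reported, was 0 after normexp background correction with an offset of 50, 2 at a log2 threshold of 1 and 7 at a linear fold of 1.5, where the count of higher genes was 1 in place of 0. SOHLH1, KIT and STRA8 each fell short of the linear fold of 1.5 under some setting. Over all transcripts, 1791 were higher and 740 lower as reported, against 1046 and 175 after normexp correction, whose cause was not tested, and 1465 and 405 with only probes well above background on both arrays. The median over the 9 genes moved by less than the spot SD under every alternative, the one without SALL4 included. Subtracting the median of the nearest spots or of transcripts at the same level, leaving out SALL4 and taking every probe were chosen after seeing the data. Leaving out the spots of both patches changed no spot of these genes. No paired analysis was possible because each group has 1 array. At a dim signal, as for the second probes of GFRA1 and RET, the background limits what can be measured.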
